A study of Mus musculus with 8 samples.

Results

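The genes described here mark the neurons and glia of the enteric nervous system, 37 genes chosen by name, of 19505 genes with a symbol on the array. Of these, 29 mark neurons and 8 mark glia. All 37 were measured, each by 1 probe set. RNA came from about 4 cm of ileum of male KKAy mice, which carry the yellow agouti allele and become obese and diabetic, at an age given as 14 weeks in the labels. Fat supplied 45% of dietary energy in both groups. The mice had eaten this chow for 4 weeks when gavage began, and for 8 weeks they were then given, once a day, either voglibose (1 mg/kg) or plain water. Voglibose slows carbohydrate digestion by blocking intestinal alpha-glucosidases. Each group held 4 mice, with 1 array per mouse, and the comparison asks which ileal transcripts differ after treatment. Values are log2 signals of Affymetrix arrays.

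The enteric nervous system lies within the gut wall, in a myenteric plexus between the layers of the muscle coat and a submucosal plexus beneath the mucosa. Its neurons release acetylcholine, nitric oxide and neuropeptides and so set contraction, secretion and blood flow, and its glia surround the neurons and reach into the mucosa. Both arise from neural crest cells that need the kinase Ret and the endothelin receptor B to colonize the gut. Smooth muscle myosin heavy chain, Myh11, marks the muscle coat in which the myenteric plexus is embedded.

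Promoter windows are shown for 3 genes, none of which passed in the main fits. Vip had the smallest p between the groups among the 37 genes. Nos1 and Scn7a were the neuronal and the glial gene with the highest correlation with Myh11 among those that had a window. Stmn2 and Penk, which passed for the slope on Myh11, had no window. They come from RefSeq on GRCm38.p6, reach from 250 bases before to 50 after the gene's start, and are written along the strand of the gene. Capitals mark matches, on either strand, to any of the motifs searched.
Vip, chr10:5638968-5639267, plus strand: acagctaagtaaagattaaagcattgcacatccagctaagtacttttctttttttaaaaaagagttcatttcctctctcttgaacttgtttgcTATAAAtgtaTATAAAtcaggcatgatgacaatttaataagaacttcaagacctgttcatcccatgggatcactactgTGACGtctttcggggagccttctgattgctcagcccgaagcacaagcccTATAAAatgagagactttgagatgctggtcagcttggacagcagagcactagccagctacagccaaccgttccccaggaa
Nos1, chr5:117866589-117866888, plus strand: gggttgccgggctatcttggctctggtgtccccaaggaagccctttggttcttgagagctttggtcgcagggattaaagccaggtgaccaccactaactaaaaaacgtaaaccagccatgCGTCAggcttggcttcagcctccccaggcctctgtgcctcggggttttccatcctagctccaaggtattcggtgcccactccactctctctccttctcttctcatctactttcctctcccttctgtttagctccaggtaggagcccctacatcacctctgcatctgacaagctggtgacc
Scn7a, chr2:66784861-66785160, minus strand: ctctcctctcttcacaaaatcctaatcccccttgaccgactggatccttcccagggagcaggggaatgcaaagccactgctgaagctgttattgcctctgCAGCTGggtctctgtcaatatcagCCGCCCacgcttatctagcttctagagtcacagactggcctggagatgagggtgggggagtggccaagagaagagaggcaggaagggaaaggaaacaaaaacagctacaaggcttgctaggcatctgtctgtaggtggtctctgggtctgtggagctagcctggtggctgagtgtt
In the Vip window a TATA box (TATAAA) began 30 bases before the start, with further copies at 157 and 147 bases. A half-site of the cAMP response element (TGACG) lay 79 bases before it. The Nos1 window held TGACG on the opposite strand, beginning 130 bases before the start, and that of Scn7a an E-box (CAGCTG) at 150 and a GC box (GGGCGG, opposite strand) at 126 bases. Of the 37 genes, 25 had a window. A gene was counted once if any of its windows matched, whereas the shares of all windows count each window, so the units differ. TGACG was found in 11 of these 25, against 20.8% of all 32851 windows, TATAAA in 3 (13.6% of all), GGGCGG in 14 (35.7%) and CAGCTG in 6 (16.3%). The full element TGACGTCA, which contains TGACG, was found for 3 genes, Cartpt, Foxd3 and Th (1.79% of all windows). ACAAAG or ACAATG, the core bound by SOX factors, was in 5 (28.6%), the CArG box of muscle genes in 1, Elavl4 (1.63%), and TTCAGCACC, part of the element bound by the neuronal repressor REST, in 0 (0.371%). These matches describe the letters and no binding was measured.

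Array medians lay between 5.89 and 5.94 and lower quartiles between 4.05 and 4.18. Of the 37 genes, 13 had a mean over the 8 arrays above 5.91, the median of all probe sets, 12 lay between this and the lower quartile of 4.13, and 12 lay below it, where signal and background are hardest to separate. Neuronal genes above the median were Elavl4, Stmn2, Gap43, L1cam, Syt1, Ret, Gfra1, Vip, Npy and Cartpt. Among the 8 glial genes, the defining markers S100b, Sox10 and Foxd3 had means of 3.51, 3.84 and 3.69, all below the lower quartile. The 3 glial genes above the median were Ednrb, Erbb3 and Scn7a, and Ednrb and Erbb3 are also known from other cells of the gut, among them epithelium for Erbb3. Cdh19 and Gfap lay between the lower quartile and the median. In a piece of whole tissue, fewer cells of a type and less RNA per cell cannot be told apart.

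Some mice stood apart in other cell types. Water mouse 2 had the highest Myh11 signal, 13.81 against 11.11 to 13.17 in the other mice, and the lowest signals of the T cell gene Cd8a (5.72, others 7.80 to 9.28) and the enterocyte gene Fabp1 (12.54, others 13.97 to 16.22). Other epithelial genes went both ways in this mouse. Its Vil1 signal was also the lowest (15.30, others 15.48 to 15.82), while its Krt8, Krt19 and Krt20 signals were the highest of the 8 mice. Its mean over 10 epithelial genes was -0.12 after centring, the lowest of the 8 mice, but this rested on Fabp1 (12.54, mean over the 8 mice 14.71). Of the other epithelial genes, only Vil1 (15.30, mean 15.60) and Cdh1 (16.35, mean 16.37) lay below their own means in this mouse. Water mouse 2 also had the highest mean over 6 fibroblast genes (0.67, others -0.49 to 0.41) and over 5 fat genes (0.69, others -0.37 to 0.29). Among the fat genes, Lep was 5.56 (others 2.89 to 4.10) and Adipoq 5.40 (others 3.77 to 4.79), while Cidec was not raised (10.48, others 10.18 to 10.85). Voglibose mouse 2 had pancreatic acinar transcripts, with Cpa1 at 12.01 against 4.72 to 5.37 elsewhere. The B cell gene Ms4a1 was at 7.14 in water mouse 1 and 7.47 in voglibose mouse 3, against 3.34 to 5.0 in the others. Water mouse 4 and voglibose mouse 2 had the lowest signals of Pyy, a peptide gene of distal enteroendocrine cells, at 8.44 and 8.5 against 10.97 to 12.16 elsewhere, and of Nts, the neurotensin gene, at 12.80 and 11.99. Values without some of these mice stand beside the results below.

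The largest difference among the 37 genes was that of Vip, and it did not pass the test over all probe sets. Vip encodes vasoactive intestinal peptide, a transmitter that relaxes intestinal smooth muscle and drives secretion. Its signal was 8.73, 9.46, 8.92 and 9.26 in water mice 1 to 4 and 7.95, 8.54, 7.80 and 8.72 in voglibose mice 1 to 4. Every voglibose mouse lay below every water mouse, although the closest values, 8.72 and 8.73, nearly met. The means were 9.09 ± 0.33 and 8.25 ± 0.45 (SD, n = 4), a difference of -0.84 ± 0.24 (SE, 95% interval -1.36 to -0.32), or a signal ratio of 0.559. In limma's fit over all probe sets the unadjusted p was 0.00453 and the adjusted p 0.652, so the difference did not pass the threshold of 0.05. The exact two-sided permutation test over 70 arrangements gave p = 0.0286, the smallest this design allows. When each mouse was left out in turn the difference ran from -0.996 to -0.689, with an unadjusted limma p from 0.00181 to 0.0167. With Myh11 as a covariate it was -0.85.

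Of the 37 genes, 0 passed at an adjusted p under 0.05 (0.0% of all probe sets) and 1, Vip, had an unadjusted p under 0.05 (7.52% of all probe sets, 4.44% with the lower signal in voglibose mice). The groups did not overlap in 2 genes, Vip and Snap25, or 5.41% of the 37, against 4.35% of all probe sets, and 2.53% with voglibose mice lower. Both shares are near the background or below it. Differences ran from -0.84 to 0.37, with 17 genes higher and 20 lower in voglibose mice and a median of -0.08, beside -0.005 over all probe sets. The adjusted p of the 37 genes was 0.652 or higher.

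**Figure D1:**
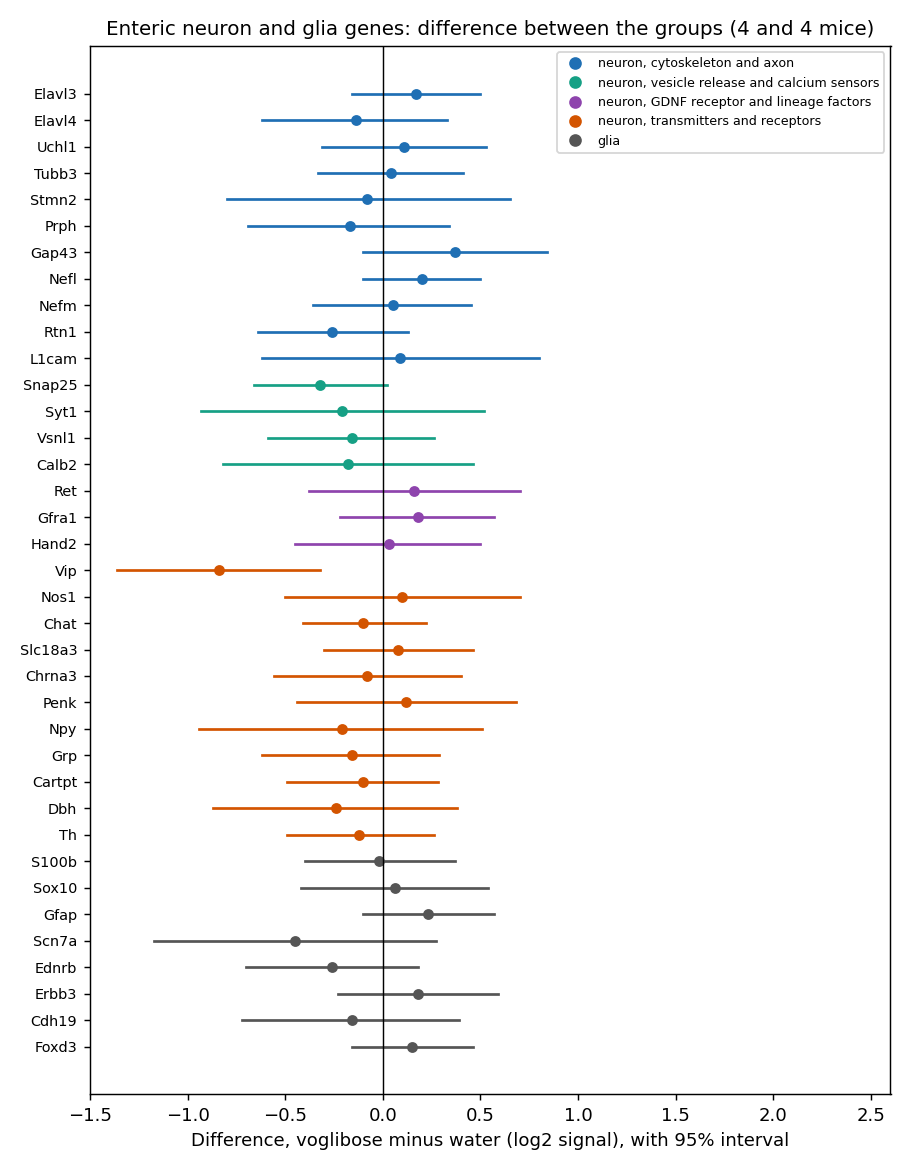
Difference between voglibose and water mice (log2 signal) for the 37 genes, with the 95% interval of the moderated fit and colours for the role of each gene. The interval of Vip, -1.36 to -0.32, is the only one of the 37 that leaves out 0.

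Genes of the neuronal cytoskeleton and axon stayed within the spread between mice, with 7 of 11 higher and 4 lower (median 0.05). Gap43, a growth cone protein, had the largest difference of these. It was 6.06, 6.63, 5.67 and 6.15 in water mice and 6.82, 6.14, 6.44 and 6.59 in voglibose mice, a difference of 0.37 ± 0.22 (SE, limma adjusted p = 0.731). When each mouse was left out it ran from 0.218 (without water mouse 3) to 0.538 (without water mouse 2). Stmn2, which regulates microtubules in growing axons, was 7.43, 8.12, 7.12 and 6.37 in water mice and 6.90, 6.80, 7.70 and 7.33 in voglibose mice. The highest and the lowest mouse were thus both water mice, and the difference was -0.08 with a 95% interval from -0.80 to 0.65. L1cam, an adhesion molecule of axons, was 8.79, 9.22, 9.10 and 8.14 in water mice and 8.87, 8.35, 8.57 and 9.82 in voglibose mice (difference 0.09 ± 0.32, SE). Elavl4, an RNA-binding protein of neurons known as HuD, was 6.18, 6.47, 5.81 and 6.15 in water mice and 5.84, 5.51, 6.41 and 6.27 in voglibose mice (-0.14 ± 0.22). The groups overlapped in all 4 of these genes. Its relative Elavl3 (HuC), the tubulin Tubb3, the ubiquitin hydrolase Uchl1, the filament protein Prph, the neurofilament chains Nefl and Nefm and the reticulon Rtn1 differed by -0.26 (Rtn1) to 0.20 (Nefl). Elavl3, Nefl and Nefm had means below the lower quartile of the arrays.

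Genes of vesicle release and calcium sensing were lower in voglibose mice in 4 of 4, by -0.32 to -0.16, and none passed the test over all genes. Without water mouse 2 only 2 of 4 were lower, with differences of -0.317 for Snap25, -0.022 for Vsnl1, 0.006 for Syt1 and 0.073 for Calb2. Snap25, a SNARE protein of synaptic vesicle fusion, was 5.50, 5.56, 5.69 and 5.48 in water mice and 4.88, 5.31, 5.31 and 5.46 in voglibose mice. The groups did not overlap, with 0.02 between the nearest mice. The difference was -0.32 ± 0.16 (SE; limma unadjusted p = 0.0660, adjusted p = 0.673) and -0.20 without voglibose mouse 1, the lowest. Syt1, the calcium sensor of fast release, was 6.34, 6.91, 6.29 and 5.54 in water mice and 6.01, 5.29, 6.79 and 6.16 in voglibose mice (-0.21 ± 0.33). Calb2, the calcium-binding protein calretinin, was 4.56, 6.11, 5.30 and 5.44 in water mice and 4.87, 4.94, 5.30 and 5.58 in voglibose mice (-0.18 ± 0.29). Both overlapped widely. Vsnl1, a neuronal calcium sensor, was 3.32, 4.09, 3.46 and 3.78 in water mice and 3.64, 3.74, 3.33 and 3.28 in voglibose mice, all below the lower quartile of the probe set means.

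The genes of the GDNF receptor and of lineage factors differed by 0.03 to 0.18. Ret, the receptor kinase of GDNF, was 6.69, 6.66, 5.96 and 5.83 in water mice and 6.31, 6.12, 6.96 and 6.38 in voglibose mice (0.16 ± 0.25, SE). Its co-receptor Gfra1 was 7.26, 7.18, 6.80 and 6.85 in water mice and 7.57, 7.10, 6.91 and 7.22 in voglibose mice (0.18 ± 0.18). Hand2, a transcription factor needed for enteric neurons, was 4.61, 5.33, 4.24 and 4.90 in water mice and 4.74, 4.80, 4.64 and 5.01 in voglibose mice (0.03 ± 0.22, and -0.02 after a further quantile normalization). The groups overlapped in each of the 3. Ret and Gfra1, which act as 1 receptor complex, had an r of 0.28 with each other over the 8 mice (a description).

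Beside Vip, the transmitter and receptor genes held 10 members, 3 higher and 7 lower in voglibose mice, with differences from -0.24 (Dbh) to 0.12 (Penk). Npy, neuropeptide Y, was 6.15, 7.55, 6.25 and 7.25 in water mice and 6.24, 7.23, 6.54 and 6.34 in voglibose mice, so that 3 mice stood above 7 and 5 below 6.6. Its difference was -0.21 ± 0.33 (SE). Cartpt, a neuropeptide precursor, was 6.85, 6.70, 6.46 and 6.25 in water mice and 6.43, 6.30, 6.33 and 6.78 in voglibose mice (-0.10 ± 0.17, and -0.01 without water mouse 1). Chrna3, a subunit of the nicotinic receptor that carries fast transmission between enteric neurons, was 5.61, 5.86, 5.14 and 5.28 in water mice and 5.68, 4.86, 5.41 and 5.62 in voglibose mice (-0.08 ± 0.22). The enzyme and transporter of acetylcholine, Chat and Slc18a3, which share a locus on chromosome 14, had means of 2.66 and 2.87. That is below the lower quartile, and their differences were -0.10 ± 0.14 and 0.08 ± 0.17. The enzymes of noradrenaline synthesis, Dbh and Th, differed by -0.24 ± 0.28 and -0.12 ± 0.17, and the gastrin-releasing peptide gene Grp by -0.16 ± 0.21.

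**Figure D2:**
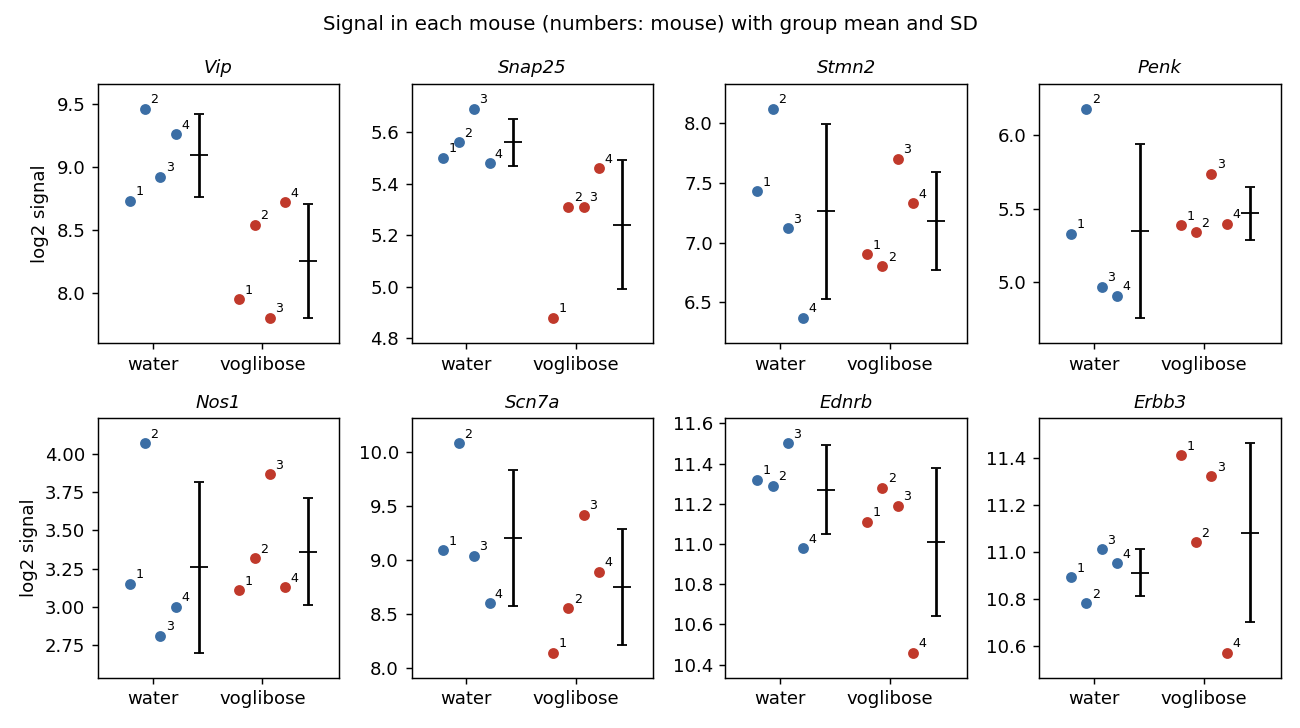
Log2 signal of 8 genes in each mouse, with the mouse number beside each point and the group mean and SD (n = 4) at the right of each group. The groups separate in Vip and Snap25 and overlap in the other 6 genes, where water mouse 2 is the highest of all mice in Stmn2, Penk, Nos1 and Scn7a.

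Glial genes were higher in 4 and lower in 4 of 8, with a median difference of 0.02 and a mean of -0.03. Scn7a, a sodium channel gene of glia, was 9.09, 10.08, 9.04 and 8.60 in water mice and 8.14, 8.55, 9.42 and 8.89 in voglibose mice. The groups overlapped, and the difference was -0.45 ± 0.33 (SE; limma adjusted p = 0.787), and -0.16 without water mouse 2. With Myh11 as a covariate it was -0.55, at an unadjusted limma p of 0.00476. In that fit 9.41% of all probe sets had an unadjusted p under 0.05. Cdh19, a cadherin of the glial and Schwann cell lineage, was 5.87, 6.39, 5.79 and 5.81 in water mice and 5.06, 5.79, 6.16 and 6.20 in voglibose mice (-0.16 ± 0.25). Ednrb, the endothelin receptor B, was 11.32, 11.29, 11.50 and 10.98 in water mice and 11.11, 11.28, 11.19 and 10.46 in voglibose mice (-0.26 ± 0.20), and Erbb3, the neuregulin receptor, 10.89, 10.78, 11.01 and 10.95 in water mice and 11.41, 11.04, 11.32 and 10.57 in voglibose mice (0.18 ± 0.19). Voglibose mouse 4 was the lowest of all 8 in both of these. Gfap, the filament protein of glia, differed by 0.23 ± 0.15, Foxd3, a transcription factor of the neural crest, by 0.15 ± 0.14, Sox10, which keeps glial identity, by 0.06 ± 0.22 and the calcium-binding protein S100b by -0.02 ± 0.17.

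The neuronal and the glial genes were then set side by side. After subtraction of each gene's mean, the mean of the 29 neuronal genes was -0.03, 0.40, -0.17 and -0.08 in water mice 1 to 4 and -0.08, -0.14, 0.02 and 0.07 in voglibose mice 1 to 4 (log2). The mean of the 8 glial genes was -0.03, 0.24, -0.11 and -0.03 in water mice and -0.07, -0.12, 0.16 and -0.03 in voglibose mice. Water mouse 2 was highest in both, and the groups overlapped in both. Voglibose minus water was -0.06 for neurons and -0.03 for glia, and the gap between these, from unrounded values, was -0.02, against an SD between mice of 0.10 in each group. Without water mouse 2 the differences were 0.06 for neurons and 0.04 for glia. The 2 means varied together, with r = 0.87 over the 8 mice (rho = 0.79) and 0.67 without water mouse 2, and with Ednrb and Erbb3 left out of the glia, a choice made after seeing the data, r was 0.92 in both cases. These correlations are a description and share the arrays and their normalization. Between single genes they were weaker: the median r was 0.23 over 406 pairs of neuronal genes, 0.17 over 28 glial pairs and 0.15 over 232 pairs of a neuronal with a glial gene. Scn7a and Cdh19 had an r of 0.84 with each other, S100b and Sox10 0.45, Chat and Slc18a3 0.13 and Nefl and Nefm -0.06.

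**Figure D3:**
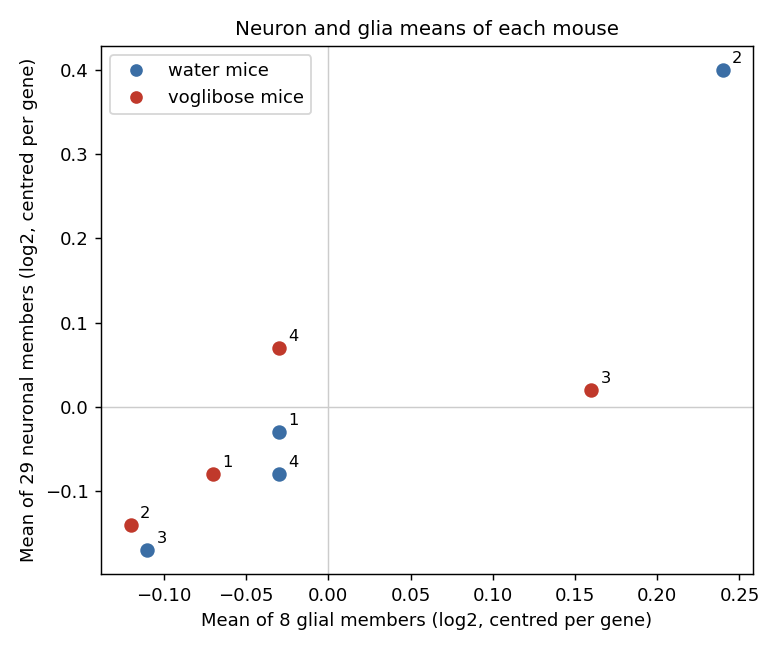
Mean of the 29 neuronal genes against the mean of the 8 glial genes in each mouse (log2, each gene centred on its mean over 8 mice, mouse numbers beside the points). Water mouse 2 stands at the upper right with 0.40 and 0.24, and the other 7 mice lie between -0.17 and 0.07 on the neuronal axis.

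The relation to the muscle coat was read from Myh11. Its signal was 12.16, 13.81, 11.83 and 11.11 in water mice 1 to 4 and 11.93, 12.06, 13.17 and 12.41 in voglibose mice 1 to 4. Water mouse 2 and voglibose mouse 3 were the highest and water mouse 4 the lowest, and the groups overlapped. The smooth muscle list followed it, with an adjusted p under 0.05 for the slope on Myh11 in 12 of 15 genes (limma, all probe sets), among them desmin (Des, r = 0.99) and the myosin light chain Myl9 (r = 0.99).

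Among the 37 genes, 2 passed for the slope on Myh11, both rising with it, or 5.41% of the 37, against 0.802% of all probe sets and 0.455% with a positive slope. Stmn2 rose by 0.62 ± 0.10 (SE) per log2 unit of Myh11 (limma adjusted p = 0.0176), with r = 0.95 (exact permutation p = 0.000570) and rho = 0.88 (exact permutation p = 0.00724). Its signal ran from 8.12 in water mouse 2, the mouse with the most Myh11, to 6.37 in water mouse 4, the mouse with the least. Penk, the precursor of the enkephalins, opioid peptides of enteric motor neurons, rose by 0.47 ± 0.09 per unit (limma adjusted p = 0.0340), with r = 0.96 (exact permutation p = 0.000248) and rho = 0.90 (exact permutation p = 0.00456). It was 5.33, 6.18, 4.97 and 4.91 in water mice and 5.39, 5.34, 5.74 and 5.40 in voglibose mice, again highest in the mice with the most Myh11. Adjusted over all 22205 probe sets, the exact permutation p of r was 0.178 for Stmn2 and 0.164 for Penk, and this test passed 0 of the 37 genes and 0.0% of all probe sets.

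Both calls depended on which mice were kept. The call of Stmn2 was lost in 3 of the 8 refits that left out 1 mouse, with adjusted p of 0.352 without water mouse 2, 0.114 without water mouse 4 and 0.0503 without voglibose mouse 3. That of Penk was lost in 6 of 8, with adjusted p of 0.496, 0.118 and 0.0806 for the same mice and 0.0616, 0.0506 and 0.0570 without water mouse 1, water mouse 3 and voglibose mouse 4. Across these refits the slope ran from 0.575 to 0.643 for Stmn2 and from 0.413 to 0.493 for Penk. The unadjusted limma p was under 0.05 in 8 of 8 for both. When the 2 mice farthest from the median of Myh11 were left out (water mouse 2 and voglibose mouse 3), r was 0.85 for Stmn2 and 0.83 for Penk over 6 mice, and 0 of the 37 genes passed. The smooth muscle list lost its calls in that refit too, with an adjusted p of 0.261 for Des (r = 0.96) and 0.131 for Myl9 (r = 0.99). With so few mice, the lost calls therefore say little about these genes. With group as an added term, r between deviations from the group means was 0.96 for both, and their adjusted p was 0.0126 and 0.0376. In that fit 3 of the 37 passed, these and Scn7a, all with positive slopes, against 1.22% of all probe sets and 0.698% with a positive slope.

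**Figure D4:**
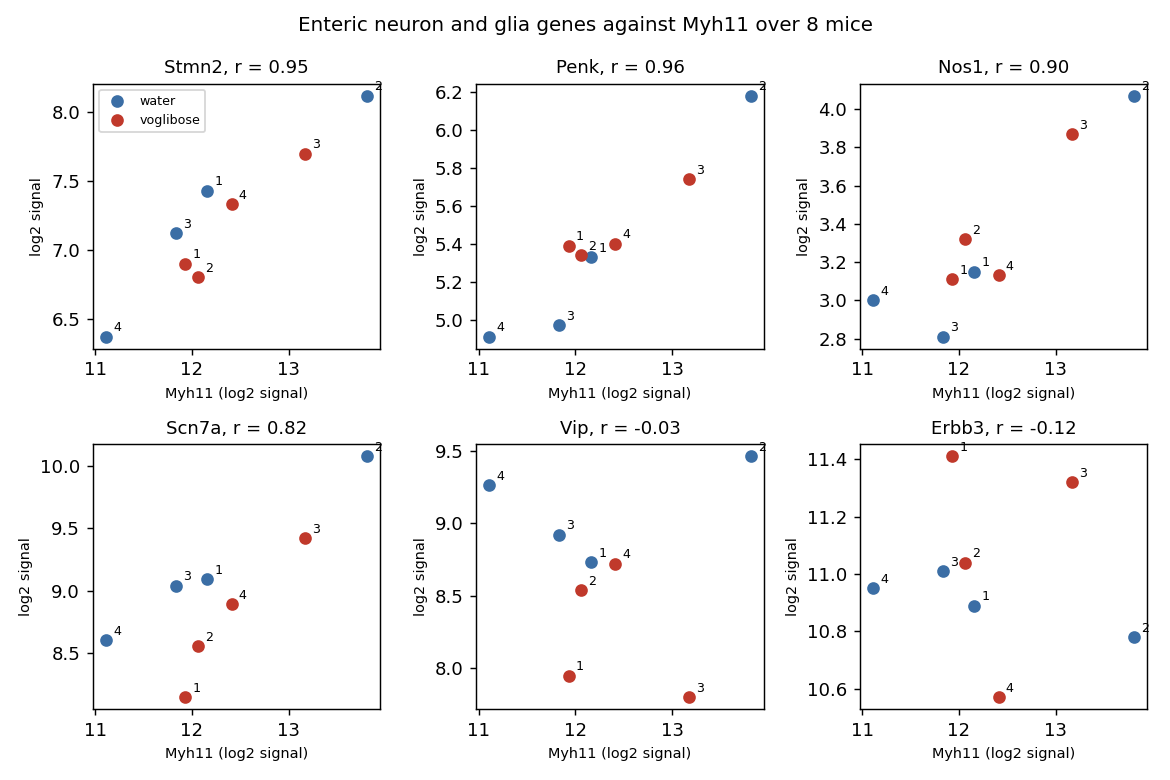
Signal of 6 genes against Myh11 (both log2) in the 8 mice, coloured by group with the mouse number beside each point. Stmn2 and Penk rise with Myh11 (r = 0.95 and 0.96), whereas Vip and Erbb3 do not (r = -0.03 and -0.12).

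Further genes leaned the same way without passing. Nos1, the neuronal nitric oxide synthase of inhibitory motor neurons, was 3.15, 4.07, 2.81 and 3.0 in water mice and 3.11, 3.32, 3.87 and 3.13 in voglibose mice. The mice with the most Myh11 again stood highest (r = 0.90, limma adjusted p = 0.0627, and r = 0.44 without water mouse 2 and voglibose mouse 3), although the mean of 3.31 lay below the lower quartile. Scn7a had r = 0.82 (limma adjusted p = 0.100), and with group as an added term its adjusted p was 0.0166. Its r was 0.61 without water mouse 2 (adjusted p = 0.665) and 0.26 without both mice (adjusted p = 0.928). Syt1, Ret, Uchl1, Grp and Prph had r from 0.78 to 0.84 (0.43 to 0.75 without both mice), and Elavl3, Foxd3, Cdh19 and Slc18a3 from 0.63 to 0.68 (-0.12 to 0.75 without both mice). In all, 9 of the 37 (24.3%) had an unadjusted exact permutation p of r under 0.05 with r above 0, against 4.76% of all probe sets. The coefficient r was above 0 in 29 of 37 (78.4%), against 48.0% of all probe sets, and the median r was 0.42 against -0.03. Without water mouse 2 the median r was 0.23 and 22 genes had r above 0, and without both water mouse 2 and voglibose mouse 3 the median was 0.06, again with 22 genes above 0. The mean of the 29 neuronal genes had r = 0.83 with Myh11 (rho = 0.86) and 0.47 without both mice, and the mean of the 8 glial genes r = 0.85 (rho = 0.57) and -0.09 without both mice.

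Some genes did not go with Myh11. Vip and Snap25, the 2 genes in which the groups did not overlap, had r of -0.03 and 0.10, and -0.74 and -0.15 without water mouse 2. Th and Dbh had r of -0.61 and -0.34, Tubb3 -0.16, Chat -0.14 and Sox10 and Nefm -0.09 each. Within the transmitter genes r thus ran from -0.61 for Th to 0.96 for Penk. Vip had r = 0.55 with Npy and 0.73 with Snap25 over the 8 mice. Vip and Snap25 were both lower in every voglibose mouse, which by itself raises the r between them, and their r within the groups was not computed.

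**Figure D5:**
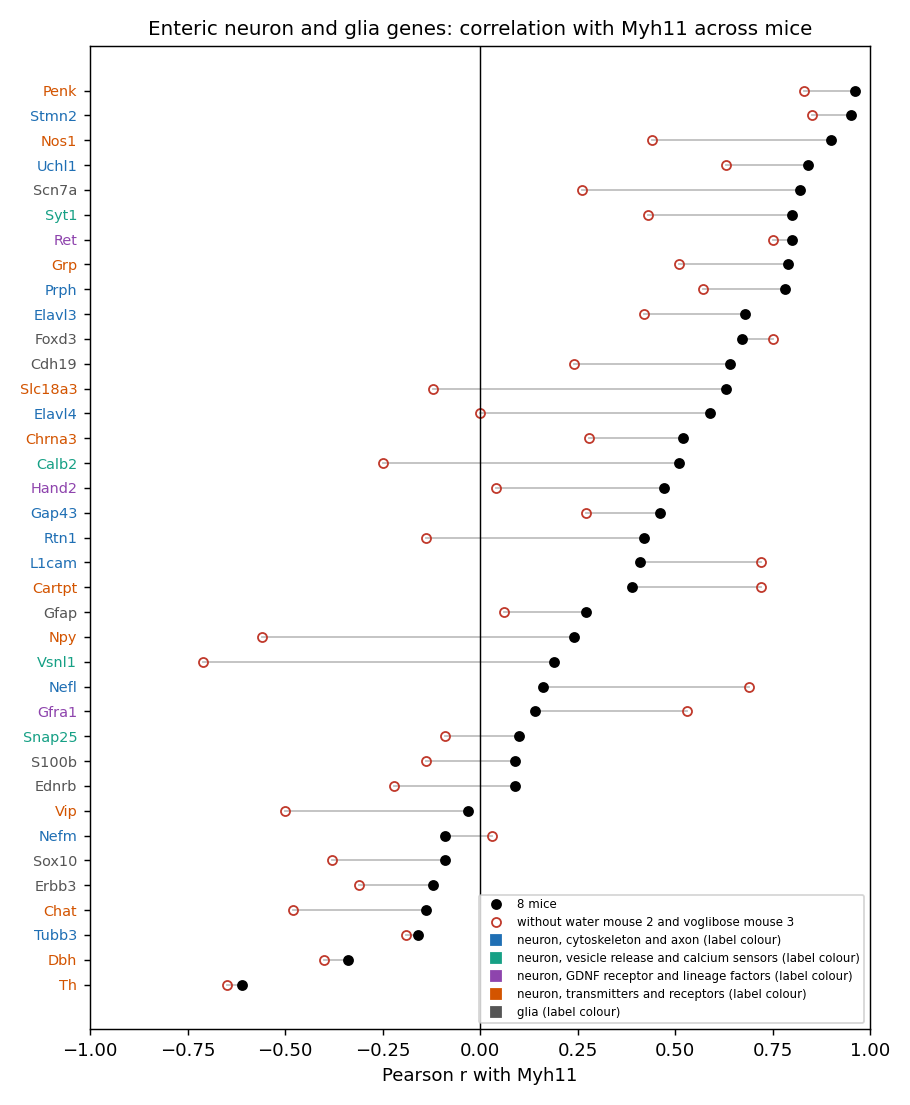
Pearson r with Myh11 of the 37 genes over 8 mice (filled) and over 6 mice without water mouse 2 and voglibose mouse 3 (open), with gene names coloured by role. Penk, Stmn2 and Ret keep an r of 0.75 or more in both, whereas Vsnl1, Npy and Calb2 are among those that change sign.

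Lists of other cell types differed in their r with Myh11 over the 8 mice. The median r was 0.73 over 6 fibroblast genes and 0.26 when water mouse 2 and voglibose mouse 3 were left out. Over 7 genes of interstitial cells of Cajal and PDGFRA cells it was 0.39 and then -0.01. Of these 7 genes, 6 had r above 0 over the 8 mice. The chloride channel gene Ano1 had 0.87 and then 0.50, whereas P2ry1 had -0.81 and then -0.58. The median r was -0.18 over 12 enteroendocrine genes, 7 of them below 0, whose mean had an r of 0.16. Enteroendocrine cells share vesicle and granule genes with neurons, and their list mean had an r of 0.22 with the neuronal mean, and 0.63 without water mouse 2. Of 10 epithelial genes, 7 had r above 0 (median 0.30), while Fabp1 had -0.83, and -0.58 without both mice. Over 5 leukocyte genes the median r was -0.11, with 2 above 0, and 0.06 without both mice, with 3 above 0. Cd8a was the lowest of these 5 at -0.90, and had -0.67 without both mice. The part of these cell types in the relation of the neuronal genes to Myh11 was not tested.

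A further list of 32 neuronal genes, 28 of them measured, gave 12 higher and 16 lower in voglibose mice (median -0.07), and 0 with an unadjusted p under 0.05. Its largest difference was that of Map2, a microtubule protein of dendrites, at 0.50 ± 0.23 (SE; limma adjusted p = 0.663). Its median r with Myh11 was 0.40, with 24 of 28 above 0 (0.14 without water mouse 2 and voglibose mouse 3), and 0 passed for the slope. Nmu, the gene of the gut peptide neuromedin U, had r = 0.92 and Map1b, a microtubule protein of axons, 0.88, whereas Slc17a6, the vesicular glutamate transporter, had -0.91. Nmu and Slc17a6 had means below the lower quartile. The mean of this list followed that of the 29 neuronal genes, with r = 0.96 and 0.88 without water mouse 2. Of 9 further glial genes measured, 8 were higher and 1 lower in voglibose mice (median 0.09). The lower gene was Fabp7, a fatty acid binding protein of glia, at 6.74, 6.87, 7.08 and 6.89 in water mice and 6.03, 6.66, 6.5 and 6.53 in voglibose mice. Its groups did not overlap, and the difference was -0.46 ± 0.17 (limma unadjusted p = 0.0170, adjusted p = 0.652). Kcna1, a potassium channel, and Gpm6b, a membrane proteolipid, had r of 0.84 and 0.80 with Myh11. The list of ligands that act on enteric progenitors and neurons also held Ece1, an endothelin-converting enzyme. Its genes differed by -0.22 to 0.22, with 5 higher and 4 lower of 9. Among them Gdnf, the ligand of Ret, differed by 0.22 ± 0.16, and Edn3, the ligand of Ednrb, by -0.04 ± 0.21.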

How the data were processed

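The arrays of 4 voglibose and 4 water mice were made from 250 ng of total RNA each. The authors deposited log2 signals per probe set. Per the submitters' processing notes the tools were RMA and the Transcriptome Analysis Console, with no versions. The log2 scale was read from the values, and the genome build is not given in the sources used here. Normalization across arrays hides changes in total RNA, and differences of dim genes come out too small. Arrays correlated at 0.982 to 0.994. Separate mice are given per group and no batch. The number of arrays limits the precision (median SE of a difference 0.18).

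All 22206 probe sets were tested without a filter. Symbols came from the platform annotation, and all 37 were current in RefSeq (GRCm38.p6). Groups, and slopes on Myh11 over 22205 probe sets, were fitted with limma 3.58.1 in R 4.3.3 (lmFit, eBayes, two-sided), and p-values were adjusted by Benjamini-Hochberg across the whole array (threshold 0.05). Alternatives were a further quantile normalization, a signal filter, Myh11 or group as covariate, the replicate block and the omission of mice. Correlations were tested by exact permutation over 40320 pairings. Scripts were tested on simulated data. Genes and lists were chosen with earlier results of these data known. All 37 genes are named. Values of every mouse are given where the groups do not overlap or the unadjusted p is under 0.05, and for the 4 genes with the highest mean of each role. From the other lists, genes with the smallest p or largest r were named. Penk, Nos1 and the genes that describe mice standing apart were added after their values were seen.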

Additional observations from a re-analysis of the deposited data

Results flagged for a closer look

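In 3 of 76 groups of 4 mice (37 genes and Myh11 in 2 groups each), 1 mouse lay far from the other 3 by Dixon's test at 0.829. Chance flags about 1 group in 20. Nefl was 3.45 in water mouse 4, against 3.69 to 3.71 in the other water mice, at a level below the lower quartile of the arrays. Penk was 5.74 in voglibose mouse 3, against 5.34 to 5.40 in the other voglibose mice, and this mouse also had the highest Myh11 of its group. Cdh19 was 6.39 in water mouse 2, against 5.79 to 5.87 in the other water mice, and this mouse had the highest Myh11 of all.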

How the results depend on the processing

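Of the 37 genes, 0 passed between the groups under any of 17 alternatives, and the median difference ran from -0.121 to 0.05. The number with an unadjusted p under 0.05 was 1 to 3 when each mouse was left out, and 2 with Myh11 as a covariate. With only probe sets above the median signal, where 13 of the genes remained, the glia difference was -0.179, neuron minus glia 0.1, the genes passing for the slope on Myh11 numbered 1 and those with r above 0 numbered 11. The number passing for that slope was 0 to 3 when each mouse was left out. Leaving out the low-Pyy pair (water mouse 4, voglibose mouse 2) made it 0, as it was with the replicate block and without the 2 mice farthest from the median of Myh11 (median r 0.06). By exact permutation it was 0 too, but there no probe set on the array passed. For the refits that left out mice, the signal filter and the replicate block, the share of all probe sets passing was not computed. A change in the 37 genes thus cannot be told from one in the whole array. The adjusted p of the muscle gene Acta2 was 0.00206 with all mice, 0.102 without water mouse 2 and 0.233 without the 2 farthest mice. The cause of the changed counts was not tested.

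Equal replicate numbers did not pair the mice: deviations of same-numbered mice correlated at 0.015, -0.324, 0.014 and -0.184. The replicate block left the differences as they were, since the design is balanced, and gave 0 calls between the groups.

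Signs turned in some group differences and some slopes, none of which had passed in the main fit. Hand2 was -0.022 after a further quantile normalization and -0.002 with Myh11 as a covariate. Without water mouse 4 and voglibose mouse 2, Elavl4 was 0.020 and Chrna3 0.033, and the slopes on Myh11 were -0.005 for L1cam, -0.057 for Gfra1 and 0.227 for Vip. With the replicate block the slopes were -0.043 for Vsnl1, -0.039 for Npy and -0.155 for Ednrb, and with a group term 0.039 for Vip. Without the 2 mice farthest from the median of Myh11 they were -0.057 for Snap25, -0.345 for Vsnl1, -0.216 for Calb2, -0.658 for Npy and -0.177 for Ednrb. Leaving out each mouse gave differences from -0.444 to 0.073 for Calb2, -0.295 to 0.085 for Cdh19, -0.191 to 0.098 for Chrna3, -0.279 to 0.021 for Elavl4, -0.149 to 0.214 for Hand2, -0.216 to 0.274 for L1cam, -0.071 to 0.371 for Nos1, -0.429 to 0.038 for Npy, -0.026 to 0.398 for Penk, -0.015 to 0.293 for Ret, -0.374 to 0.209 for Stmn2 and -0.451 to 0.05 for Syt1. Slopes ran from -0.006 to 0.517 for Calb2, -0.037 to 0.079 for Ednrb, -0.126 to 0.077 for Erbb3, -0.046 to 0.101 for Gfra1, -0.025 to 0.319 for Hand2, -0.295 to 0.475 for Npy, -0.059 to 0.077 for Snap25, -0.618 to 0.22 for Vip and -0.241 to 0.181 for Vsnl1. Signals below the lower quartile limit what Chat, Slc18a3, Nos1, S100b, Sox10 and Foxd3 can show.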
